A study of Mus musculus with 12 samples.

Results

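Interferon-β and a group of secreted interleukins were followed in J774A.1 cells, a macrophage-like line from a mouse tumour, that carried or lacked ACAT1, a mitochondrial enzyme of fatty acid and ketone metabolism. The genes were taken by name: Ifnb1, Il6, Il10, Il12a, Il12b, Il23a, Il27, Ebi3, Il15 and Lif. Of these 10 genes, 9 were counted in at least 1 state, among 18719 genes in all. Il6, Il10, Il23a, Il27, Ebi3, Il15 and Lif were counted in unstimulated cells and after lipopolysaccharide (LPS), the bacterial cell wall component that Toll-like receptor 4 senses. Ifnb1 and Il12b were counted after LPS only and have no row in the unstimulated counts used here. Il12a has no row in the counts of either state. RNA-seq was performed on 12 libraries in 4 groups of 3: unstimulated WT cells, unstimulated ACAT1 KO cells, WT cells after 2 hours with LPS at 100 ng/ml, and ACAT1 KO cells after the same treatment. WT cells had received the Cas9 vector with no guide RNA, and ACAT1 KO cells the same vector with a guide to an exon of Acat1, and both were sorted and expanded as clonal populations. The study describes the 3 unstimulated replicates of a genotype as different lines. The labels do not say what the 3 replicates after LPS are. The p-values judge a difference against the spread between libraries within groups, estimated over all groups of a fit. In these bulk samples, fewer cells that make a transcript and less of it per cell cannot be told apart.

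Totals ranged from 56948593 to 167280149 counts per library. Levels are given as CPM (counts relative to library size), scaled by trimmed mean of M values (TMM) over all 12 libraries, and a gene is called changed at a Benjamini-Hochberg adjusted p under 0.05 over all genes tested in the edgeR quasi-likelihood test. Acat1 was at 80.8 to 108 CPM in unstimulated WT cells and 25.5 to 28.9 CPM in unstimulated ACAT1 KO cells, and at 65.0 to 95.4 against 18.5 to 19.9 CPM after LPS. All 8 macrophage markers were counted in every library, with a summed level of 7833 to 10530 CPM, most of it Lyz2. Single markers separated the genotypes. Fcgr1 was at 120 to 124 CPM in WT and 71.8 to 77.7 CPM in ACAT1 KO libraries before LPS. After LPS it was at 98 to 129 against 45.7 to 60.3 CPM. Adgre1 was lower in ACAT1 KO only before LPS, at 37.7 to 45.5 against 64.8 to 82.4 CPM. Conversely, every ACAT1 KO library exceeded every WT library for Spi1 and Mertk in both states, Lyz2 before LPS and Itgam after it. The 3 fibroblast markers were at most at 1.67 CPM in sum in unstimulated cells, but after LPS they summed to 5.58 to 6.56 CPM in WT and 11.4 to 13.1 CPM in ACAT1 KO libraries, nearly all of it Pdgfra, while Col1a1 stayed at or below 0.162 CPM. The part of this in the cytokine differences was not tested. Unstimulated WT replicates 1 and 2 and ACAT1 KO replicate 2 stood apart, with 0.0124%, 0.0164% and 0.0183% of their counts on noncoding genes inside exons of the other strand, against 0.000881% to 0.00119% in the other unstimulated libraries.

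Interferon-β is a type I interferon that binds the IFNAR1 and IFNAR2 receptor chains and sets off an antiviral program, and macrophages make it after Toll-like receptor signals reach IRF3. IL-6 and LIF signal through the shared receptor chain gp130. The IL-12 family is built from paired chains: the p40 chain from Il12b joins p35 from Il12a to make IL-12, or p19 from Il23a to make IL-23, and the chain from Ebi3 joins p28 from Il27 to make IL-27. IL-10 restrains inflammatory macrophages, and IL-15 sustains natural killer cells and memory T cells.

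These genes start from promoters of different kinds, and the table of RefSeq promoters used here matched 6 of the 10 genes (Ifnb1, Il6, Il12a, Il12b, Ebi3 and Lif) and not Il10, Il23a, Il27 and Il15. The 250 bases before the RefSeq start are printed 5′ to 3′ for the 4 genes of this set that differed between genotypes after LPS, with matches in capitals to an NF-κB consensus, to the IRF element AANNGAAA and to the AP-1 site TGANTCA, each searched on both strands. No capitals stand in Il12b.
Ifnb1 (GRCm38.p6 chr4:88522795-88523044, minus strand): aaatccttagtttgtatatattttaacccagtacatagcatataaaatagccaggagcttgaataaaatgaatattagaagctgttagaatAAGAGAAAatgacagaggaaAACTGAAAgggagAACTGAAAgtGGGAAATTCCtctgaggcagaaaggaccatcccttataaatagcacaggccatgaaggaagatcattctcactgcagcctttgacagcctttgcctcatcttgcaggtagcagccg
Il6 (GRCm38.p6 chr5:30012864-30013113, plus strand): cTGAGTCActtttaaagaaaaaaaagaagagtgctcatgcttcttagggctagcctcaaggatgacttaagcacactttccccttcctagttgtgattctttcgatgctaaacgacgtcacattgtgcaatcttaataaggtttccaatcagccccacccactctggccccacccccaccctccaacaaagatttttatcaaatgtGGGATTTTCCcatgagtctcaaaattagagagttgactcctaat
Ebi3 (GRCm38.p6 chr17:55952373-55952622, plus strand): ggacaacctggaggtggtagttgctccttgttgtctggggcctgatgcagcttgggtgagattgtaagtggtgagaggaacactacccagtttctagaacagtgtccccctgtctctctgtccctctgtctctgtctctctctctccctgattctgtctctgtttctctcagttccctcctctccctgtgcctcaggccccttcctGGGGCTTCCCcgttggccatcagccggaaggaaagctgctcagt
Il12b (GRCm38.p6 chr11:44399813-44400062, plus strand): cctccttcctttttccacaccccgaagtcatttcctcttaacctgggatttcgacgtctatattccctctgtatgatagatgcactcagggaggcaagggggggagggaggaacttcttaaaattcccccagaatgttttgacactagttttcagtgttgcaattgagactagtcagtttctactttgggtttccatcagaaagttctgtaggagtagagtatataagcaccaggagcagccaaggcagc
Ifnb1 held the κB match GGGAAATTCC, from 116 to 107 bases before its start, and 3 IRF matches further upstream, of which AACTGAAA occurred in 2 places. Il6 held GGGATTTTCC and Ebi3 GGGGCTTCCC, both from 44 to 35 bases before the start, and Il6 an AP-1 match 249 to 243 bases before it. Lif, not printed, held a κB and an AP-1 match as well, and Il12a and Il12b held no match to these letters in this window. Of 32544 promoters of the same length, 7.28% held the NF-κB consensus, 21.3% the IRF element and 6.73% the AP-1 site. A match is a description of letters and not a measured binding site.

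In unstimulated cells the members were low, apart from Ebi3 and Il15. Per kilobase of merged exons, Ebi3 stood at 38.9 ± 4.70 CPM per kb in WT and 50.0 ± 2.35 in ACAT1 KO cells (SD, n = 3), and Il15 followed at 4.70 ± 0.96 and 4.30 ± 0.531. Il10, Il23a, Il27, Il6 and Lif came next in that order in both genotypes, between 1.24 and 0.192 CPM per kb, and in WT cells each of these differed from its neighbour by less than the sum of their SDs. After LPS the order in WT cells was Ebi3 at 76.7 ± 8.75, Il15 at 75.4 ± 10.2, Ifnb1 at 52.0 ± 20.3, Il6 at 34.6 ± 10.0, Il27 at 15.3 ± 8.24, Il12b at 2.35 ± 0.147, Il23a at 1.03 ± 0.311, Il10 at 0.592 ± 0.0182 and Lif at 0.549 ± 0.175 CPM per kb. By the same measure Ebi3, Il15, Ifnb1 and Il6 were not separated from their neighbours, nor was Il10 from Lif, whereas the steps from Il6 to Il27, Il12b, Il23a and Il10 exceeded the spread. In ACAT1 KO cells Ifnb1 and Il6 stood before Il15, at 124 ± 39.9 and 90.3 ± 25.8 CPM per kb, behind Ebi3 at 134 ± 7.48, though these 4 were again not separated from their neighbours beyond the spread.

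**Figure D1:**
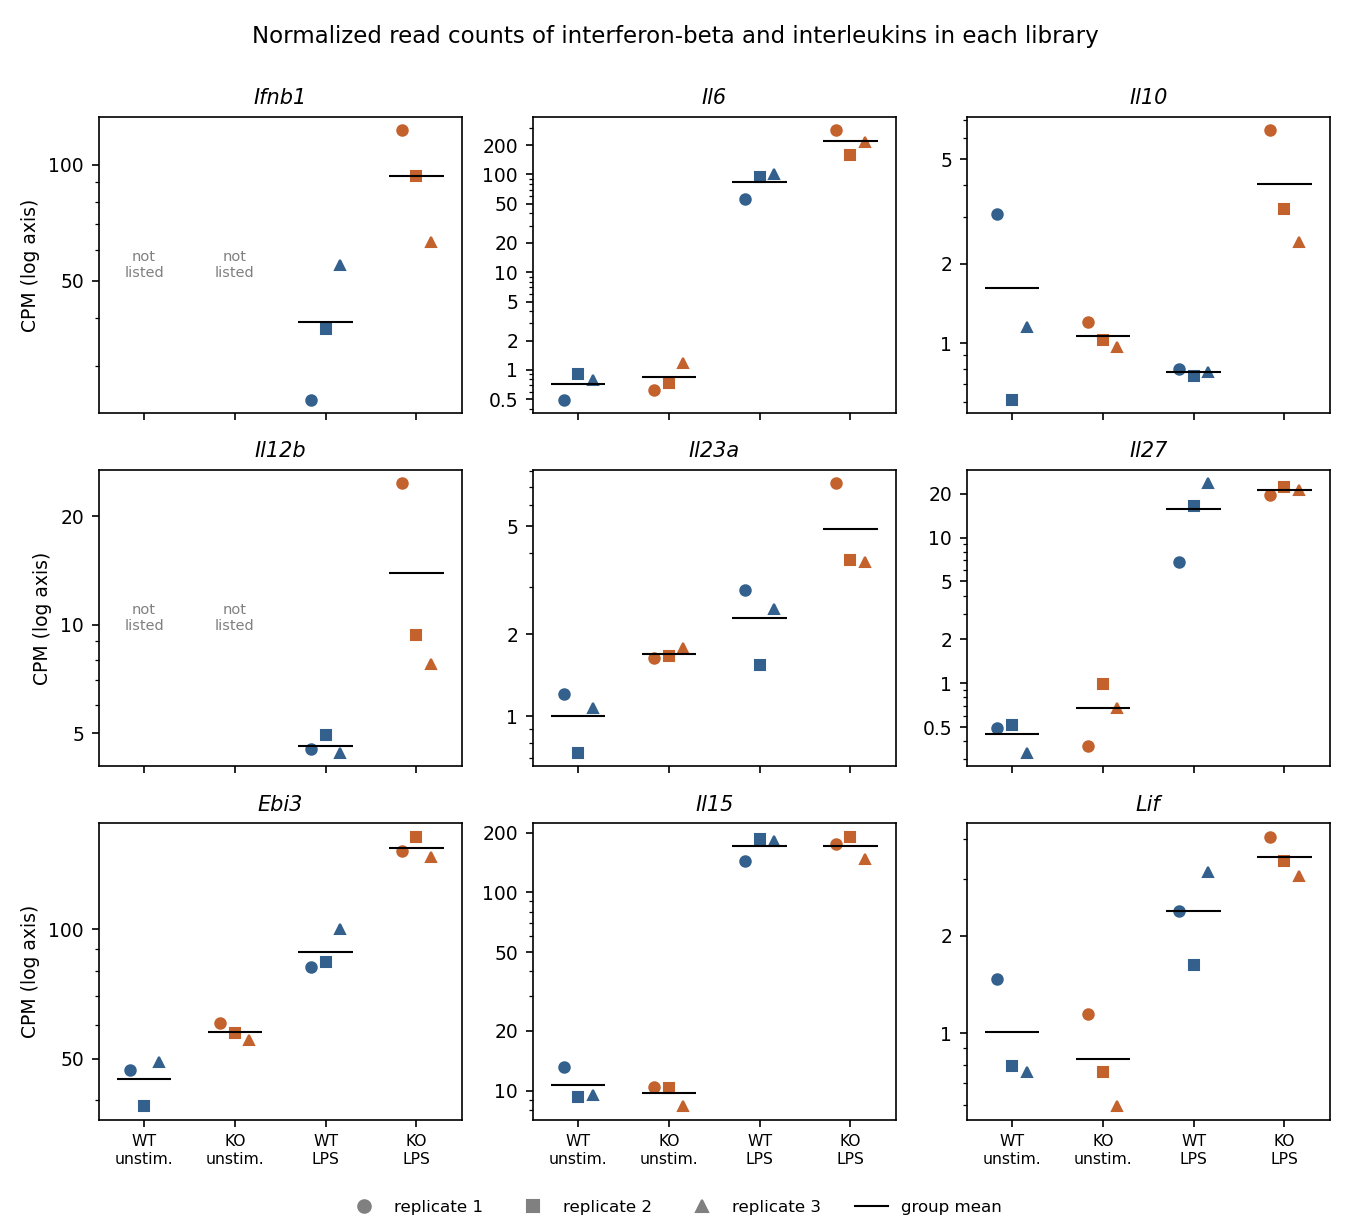
Normalized read counts of the 9 counted genes in each library, as CPM on a log axis of its own for each gene, against the 4 groups. Each point is 1 library with its replicate number as the shape, and the line is the group mean; the 3 ACAT1 KO libraries after LPS lie above all 3 WT libraries for Ifnb1, Il6, Il10, Il12b, Il23a and Ebi3.

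The comparison of genotypes after LPS asked whether cells without ACAT1 express cytokine genes differently once stimulated. Of the 9 genes tested, 5 were higher in ACAT1 KO cells and none lower, where 5.93% of all 16483 genes tested were called higher and 9.12% lower. The 5 were Ifnb1, Il6, Il10, Il12b and Ebi3. Groups did not overlap for these 5 and for Il23a, with ACAT1 KO higher each time, which held for 15.8% of all genes. The median log2 fold change of the 9 was 1.10, against -0.004 over all genes.

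Ifnb1 (ENSMUSG00000048806), a gene of a single exon on the minus strand of chromosome 4 (GRCm38 88522025 to 88522774), was at 24.6, 37.6 and 54.9 CPM in WT replicates 1, 2 and 3, and at 123, 93.5 and 63.2 CPM in the ACAT1 KO replicates. Each ACAT1 KO library lay above each WT library, though the highest WT and the lowest ACAT1 KO library were close. The fold was 2.41, a log2 fold change of 1.27 ± 0.309 (SE) with an adjusted p of 0.0312 in the edgeR test. The call was lost without ACAT1 KO replicate 1, without ACAT1 KO replicate 2 or without WT replicate 2, with adjusted p up to 0.0942 and log2 fold changes of 1.02 to 1.61 over the 6 fits that left 1 library out.

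Il6 (ENSMUSG00000025746; chromosome 5, 30013114 to 30019981, plus strand) encodes the pyrogenic cytokine that drives the acute phase response. Its level was 56.3, 93.9 and 102 CPM in WT and 285, 159.7 and 213 CPM in ACAT1 KO libraries after LPS. The groups were separated, and the fold was 2.65, with a log2 fold change of 1.40 ± 0.256 and an adjusted p of 0.0126 in the edgeR test. Lif (ENSMUSG00000034394; chromosome 11, 4257557 to 4272514, plus strand), another cytokine that acts through gp130, was at 2.39, 1.62 and 3.15 CPM in WT and 4.06, 3.42 and 3.07 CPM in ACAT1 KO libraries. WT replicate 3 exceeded ACAT1 KO replicate 3, and the log2 fold change of Lif, 0.57 with a 95% interval of 0.04 to 1.09, did not pass over all genes (adjusted p 0.136, edgeR).

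Il10 (ENSMUSG00000016529; chromosome 1, 131019845 to 131024974, plus strand) showed the widest separation of the 9 genes. It was at 0.797, 0.750 and 0.780 CPM in the WT libraries, from 68, 74 and 118 counts, and at 6.44, 3.23 and 2.42 CPM in the ACAT1 KO libraries, from 553, 361 and 254 counts. The WT values were tight and the ACAT1 KO values spread 2.66-fold, with replicate 1 highest. The fold was 5.23, a log2 fold change of 2.39 ± 0.347 with an adjusted p of 0.00642 in the edgeR test. Without ACAT1 KO replicate 1 the log2 fold change was 1.89, still called.

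Among the paired chains of the IL-12 family, Il12b (ENSMUSG00000004296; chromosome 11, 44400063 to 44414033, plus strand) was at 4.50, 4.95 and 4.40 CPM in WT and 24.7, 9.36 and 7.80 CPM in ACAT1 KO libraries after LPS. ACAT1 KO replicate 1 stood far above the other two, and all 3 lay above WT. The fold was 3.05, with a log2 fold change of 1.61 ± 0.395 and an adjusted p of 0.0321 in the edgeR test, and without ACAT1 KO replicate 1 the log2 fold change was 0.92, still called. The call was lost when any WT library was left out, with an adjusted p up to 0.0862. Il23a (ENSMUSG00000025383; chromosome 10, 128296139 to 128298752, minus strand), its partner in IL-23, was at 2.91, 1.54 and 2.47 CPM in WT and 7.19, 3.75 and 3.70 CPM in ACAT1 KO libraries. These groups did not overlap either, but at a log2 fold change of 1.10 ± 0.311 Il23a lay just outside the threshold (adjusted p 0.0504, edgeR), and without ACAT1 KO replicate 1 the log2 fold change was 0.71. Per kilobase, Il12b stood 1.77 to 3.67 times above Il23a in the WT and 2.41 to 3.92 times above it in the ACAT1 KO libraries, ranges that overlap.

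Ebi3 (ENSMUSG00000003206; chromosome 17, 55952640 to 55957022, plus strand) had the smallest fold and the smallest error of the genes called. It was at 81.6, 83.9 and 100.1 CPM in WT and 152, 164 and 147 CPM in ACAT1 KO libraries, with no overlap. Its fold was 1.77, a log2 fold change of 0.82 ± 0.0868 with an adjusted p of 0.00269 in the edgeR test. Its exons overlap an antisense gene, Gm16712, which was at 0.973 to 1.47 CPM after LPS, so that gene's counts were few beside those of Ebi3. Il27 (ENSMUSG00000044701; chromosome 7, 126589010 to 126594941, minus strand), the partner chain, was at 6.84, 16.6 and 23.6 CPM in WT and 19.7, 22.4 and 21.4 CPM in ACAT1 KO libraries. WT replicate 1 was low, WT replicate 3 was the highest of all 6, and the log2 fold change of 0.45 had a 95% interval of -0.37 to 1.27 (adjusted p 0.431, edgeR). Exons of Il27 overlap those of Apobr on the other strand, at 149.9 to 192 CPM after LPS, and reads of the 2 genes cannot be told apart if the counting did not use strand. Per kilobase, Ebi3 exceeded Il27 3.76 to 10.6 times in WT and 6.10 to 6.82 times in ACAT1 KO libraries after LPS, and 51.2 to 145 times in unstimulated cells.

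Il15 (ENSMUSG00000031712; chromosome 8, 82331632 to 82403222, minus strand) was at 144, 186 and 181 CPM in WT and 175, 191 and 148 CPM in ACAT1 KO libraries after LPS. The groups overlapped throughout. The log2 fold change was 0.03 with a 95% interval of -0.25 to 0.30, which leaves out a difference of the size measured for Ebi3 or Il6.

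**Figure D2:**
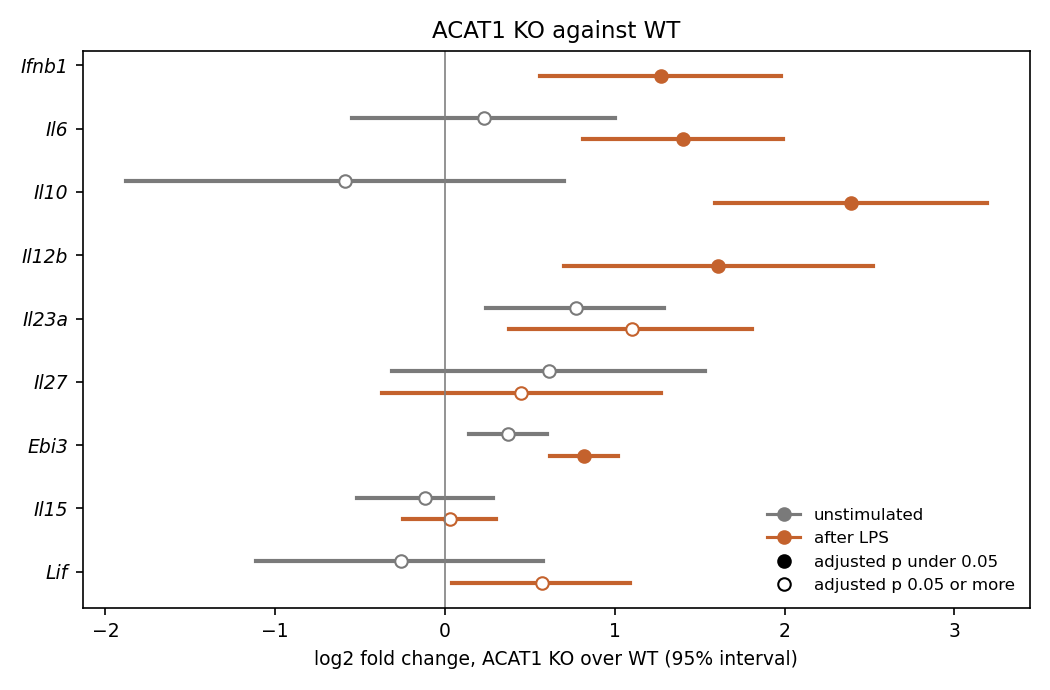
Log2 fold change of ACAT1 KO over WT for each gene, in unstimulated cells in grey and after LPS in orange, with 95% intervals. Filled points passed an adjusted p of 0.05 in the edgeR test: 5 genes after LPS, from Ebi3 at 0.82 to Il10 at 2.39, and none in unstimulated cells.

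In the same comparison after LPS, the libraries did not contribute alike. ACAT1 KO replicate 1 was the highest of its group for 6 of the 9 genes and replicate 3 the lowest for 7, and WT replicate 1 was the lowest of its group for 5. Il6, Il10 and Ebi3 were called in all 6 fits that left 1 library out, and Ifnb1 and Il12b in 3 of 6 each.

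**Figure D3:**
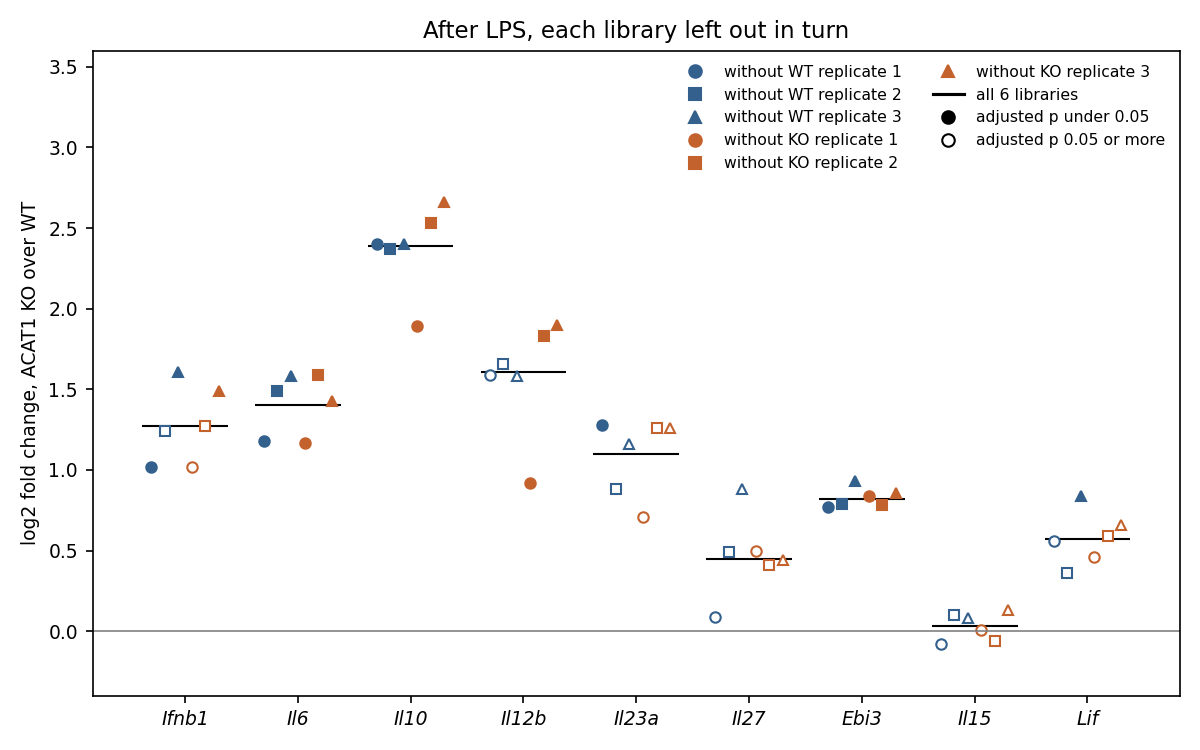
Log2 fold change of ACAT1 KO over WT after LPS with each of the 6 libraries left out in turn, for the 9 genes; the black line is the value from all 6 libraries and filled points passed an adjusted p of 0.05 in the edgeR test. Il12b ranges from 0.92 to 1.90 and is lowest without ACAT1 KO replicate 1, whereas Ebi3 stays between 0.77 and 0.93.

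In unstimulated cells the same comparison called none of the 7 genes counted in the edgeR test, where 1.91% of all 16440 genes were called. At an unadjusted p under 0.05, 2 of the 7 passed, where 19.7% of all genes did. DESeq2 called both, Il23a (adjusted p 0.0271) and Ebi3 (adjusted p 0.00899), where it called 10.5% of all genes. Il23a was at 1.20, 0.733 and 1.07 CPM in WT and 1.64, 1.66 and 1.78 CPM in ACAT1 KO libraries, with no overlap and a log2 fold change of 0.77 ± 0.221 (adjusted p 0.129, edgeR). Ebi3 was at 47.0, 38.8 and 49.0 CPM in WT and 60.7, 57.3 and 55.3 CPM in ACAT1 KO libraries, also with no overlap, and its log2 fold change was 0.37 ± 0.097 (adjusted p 0.108, edgeR). Groups failed to overlap with ACAT1 KO higher for 12.3% of all genes. The log2 ratio of mean CPM was 0.78 for Il23a and 0.42 for Ebi3 among the libraries that stood apart (2 WT, 1 ACAT1 KO) and 0.68 and 0.24 among the remaining unstimulated libraries. Gm16712, which overlaps Ebi3, ranged from 0.42 to 4.74 CPM over the unstimulated libraries.

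The other 5 genes overlapped between genotypes before stimulation. Il6 was at 0.495 to 0.900 CPM in WT and 0.630 to 1.17 CPM in ACAT1 KO libraries, and Lif at 0.760 to 1.47 against 0.595 to 1.14 CPM. Il27 was at 0.332 to 0.519 CPM in WT, from 34 to 41 counts, and 0.369 to 0.990 CPM in ACAT1 KO libraries, beside 87.1 to 106 CPM of the overlapping Apobr. Il15 was at 9.29 to 13.1 and 8.34 to 10.5 CPM. Il10 was at 3.10, 0.610 and 1.15 CPM in WT and 1.20, 1.03 and 0.966 CPM in ACAT1 KO libraries, so WT replicate 1 alone stood above the rest. The 95% intervals of these 5 log2 fold changes ran from -1.88 to 0.70 for Il10, the widest, to -0.52 to 0.28 for Il15, the narrowest.

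The response to LPS was measured within each genotype for the 7 genes counted in both states. In WT cells 6 of the 7 were higher after LPS, where 29.3% of all 16535 genes were called higher and 28% lower, and in ACAT1 KO cells all 7 were, where 29.5% were called higher and 31.2% lower. The 3 genes with the largest responses were Il6, Il27 and Il15. Il6 was 115-fold higher in WT cells, with a log2 fold change of 6.84 ± 0.357, and 259-fold higher in ACAT1 KO cells, at 8.02 ± 0.36. Il27 was 35.8-fold and 31.7-fold higher and Il15 16.1-fold and 17.6-fold higher in WT and ACAT1 KO cells. Adjusted p-values of these 3 genes were at most 1.96e-06 in the edgeR test. Lif, Il23a and Ebi3 had smaller responses, with log2 fold changes of 1.25, 1.20 and 0.98 in WT and 2.07, 1.52 and 1.42 in ACAT1 KO cells, and adjusted p-values of at most 0.00592 in the edgeR test. Without the 3 unstimulated libraries that stood apart, Il23a in WT cells was no longer called (log2 fold change 1.08, adjusted p 0.0788, edgeR).

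Il10 was the exception. In WT cells its log2 fold change was -1.06 ± 0.497 (adjusted p 0.0891, edgeR), with 3.10, 0.610 and 1.15 CPM before and 0.797, 0.750 and 0.780 CPM after LPS, and without unstimulated WT replicate 1 it was -0.22. Leaving out unstimulated WT replicate 2 gave -1.44, with a call (adjusted p 0.0157, edgeR), and DESeq2 (adjusted p 0.0372) and upper-quartile normalization (-1.27, adjusted p 0.0441, edgeR) called it as well, 3 of 21 alternatives in all. In ACAT1 KO cells Il10 was 3.77-fold higher after LPS, a log2 fold change of 1.91 ± 0.497 (adjusted p 0.00551, edgeR), and each stimulated library lay above each unstimulated one.

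**Figure D4:**
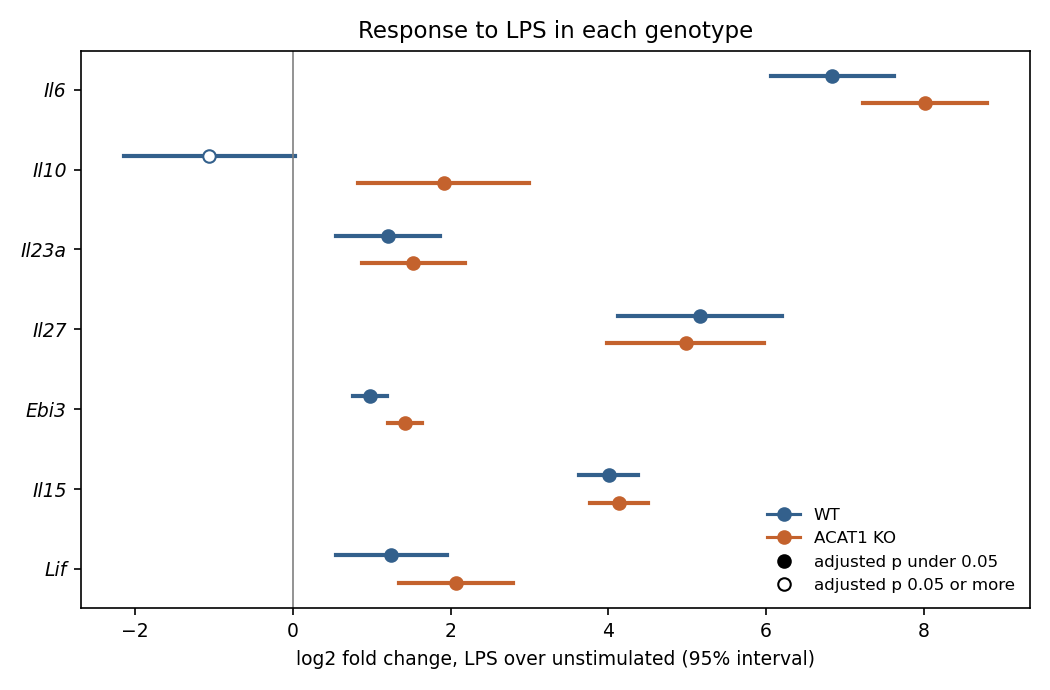
Log2 fold change of LPS over unstimulated cells for the 7 genes counted in both states, in WT cells in blue and ACAT1 KO cells in orange, with 95% intervals. Filled points passed an adjusted p of 0.05 in the edgeR test; Il10 in WT cells, at -1.06, is the only open point, and Il6 lies farthest to the right in both genotypes, at 6.84 and 8.02.

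Whether the response to LPS differed between genotypes was tested as an interaction. No gene of the 7 was called in the edgeR test, where 0.187% of all genes were, and 3 passed an unadjusted p under 0.05, where 8.92% of all genes did. These were Il10 with a log2 difference of responses of 2.97 ± 0.702 (adjusted p 0.129, edgeR), Il6 with 1.18 ± 0.475 (adjusted p 0.465, edgeR) and Ebi3 with 0.44 ± 0.138 (adjusted p 0.285, edgeR). DESeq2 called 1 of the 7, Il10, with an adjusted p of 0.000655, where it called 2.01% of all genes. Over 21 alternatives the adjusted p of Il10 ran from 0.000655 to 0.292 and its value from 2.15 to 3.35. This edgeR fit did not pair unstimulated and LPS libraries of the same number. A fit that paired them called none of the 7 either, but called 288 of all 16535 genes, against 31 without pairing (edgeR). Thus the genotype differences after LPS were not shown to differ from those before LPS for any of the 7 in the edgeR test. For Ifnb1 and Il12b the interaction could not be fitted.

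Of 14 receptor genes of these cytokines, 12 were tested between genotypes after LPS, and 5 were lower and none higher in ACAT1 KO cells, beside 9.12% and 5.93% of all genes. The 3 with the smallest p were Il12rb1, Ifnar1 and Il6st, which encodes gp130. Il12rb1, the shared chain of the IL-12 and IL-23 receptors, was low, at 0.8207 ± 0.0855 CPM in WT and 0.4365 ± 0.0473 CPM in ACAT1 KO libraries. Its log2 fold change was -0.89 ± 0.174 (adjusted p 0.0161, edgeR). Ifnar1, a receptor chain for interferon-β, was at -0.28 ± 0.0575 (adjusted p 0.0197, edgeR). Its partner chain Ifnar2 was at 0.07 and not called (adjusted p 0.397, edgeR). Il6st was at 103 ± 15.5 CPM in WT and 73.4 ± 1.40 CPM in ACAT1 KO libraries, a log2 fold change of -0.46 (adjusted p 0.0218, edgeR). The other receptors called lower were Il12rb2 and Il6ra, and the list's median was -0.217. All 5 calls were lost in some fits with 1 library left out: Il12rb1 was called in 4 of 6, Il6st and Il12rb2 in 3, Ifnar1 in 2 and Il6ra in 1, without a change of sign. In unstimulated cells none of 11 receptors passed the adjusted threshold in the edgeR test, and none did for the interaction. Before stimulation the log2 fold changes were nonetheless -0.92 for Il12rb1, -0.84 for Il12rb2 and -0.43 for Il6st. Those of Ifnar1 and Il6ra were -0.08 and 0.18. The interaction of Il6ra was -0.46 ± 0.0951 (unadjusted p 0.000462, adjusted p 0.091, edgeR). That of Ifnar1 was -0.20 ± 0.0758 (unadjusted p 0.0204, adjusted p 0.405, edgeR). Those of Il12rb1, Il12rb2 and Il6st were 0.02, -0.16 and -0.05. At the adjusted threshold, none of the 5 differences was shown to arise with LPS. In the response to LPS 6 of 11 receptors were higher in WT and 4 of 11 in ACAT1 KO cells, and 3 were lower in each, against 29.3% and 29.5% of all genes higher and 28% and 31.2% lower, with Il15ra, the chain that presents IL-15, at 2.34 and 2.40 and Il12rb1 at -2.0 and -1.98.

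Of 18 transcription and mRNA decay factors known to act on these genes, 17 were tested. After LPS, Jun, a component of AP-1, was lower in ACAT1 KO cells, at 56.5 ± 4.34 against 34.7 ± 2.43 CPM (log2 fold change -0.68, adjusted p 0.0031, edgeR), and so was Irf8, an interferon regulatory factor of the myeloid lineage, at 63.4 ± 6.87 against 39.7 ± 6.23 CPM (-0.65, adjusted p 0.0129, edgeR). The other 15 were not called, and 2 of 17 lower stands beside 9.12% of all genes. Jun was called in all 6 fits with 1 library left out, and Irf8 in 5. Irf8 was higher in ACAT1 KO cells before stimulation, at 233 ± 5.93 against 159.5 ± 4.86 CPM (log2 fold change 0.55, adjusted p 0.0175, edgeR), and its interaction, -1.22 ± 0.148, was called (adjusted p 0.0195, edgeR). The unstimulated call of Irf8 held in 1 of 6 fits with a library left out, that without WT replicate 3, with log2 fold changes of 0.53 to 0.56 and adjusted p up to 0.0928 (edgeR). Its interaction was called in 8 of 12 such fits, and was not called without the 3 unstimulated libraries that stood apart (-1.17, adjusted p 0.154, edgeR). In the response to LPS 11 of 17 factors were higher in WT and 12 of 17 in ACAT1 KO cells, led by Irf1 at log2 fold changes of 4.09 and 4.69, and 4 and 5 were lower, against the same shares of all genes as above.

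Of 25 other secreted cytokines 17 were tested after LPS, of which 5 were higher and 1 was lower in ACAT1 KO cells, with a median log2 fold change of 0.412, where 5.93% of all genes were called higher and 9.12% lower. The 3 higher genes with the smallest p were Il1rn, the IL-1 receptor antagonist, at 155 ± 3.24 against 254 ± 28.1 CPM (0.73, adjusted p 0.00269, edgeR), Il1b at 219 ± 67.8 against 593 ± 167 CPM (1.46, adjusted p 0.013, edgeR) and Il1a at 200.1 ± 65.9 against 473 ± 103 CPM (1.26, adjusted p 0.0177, edgeR). Tnf and Il19 were the other two. With 1 library left out, Il1rn was called in 6 of 6 fits, Il1b in 5, Il1a in 4, Il18 in 3, Il19 in 2 and Tnf in 1. Il18, a cytokine activated by the inflammasome, was lower, at 14.3 ± 2.39 against 9.10 ± 0.742 CPM (-0.63, adjusted p 0.0181, edgeR). Before stimulation Il18 was at -0.63 (adjusted p 0.0698, edgeR) and Tnf at 0.71 (adjusted p 0.253, edgeR), neither called. Il1a was then at 0.47, Il1b at 0.21 and Il1rn at -0.56, also not called. No interaction was called among the 11 of these cytokines counted in both states (edgeR). In unstimulated cells 1 of 11 was called, Osm, lower at 68.8 ± 10.8 against 43.6 ± 0.374 CPM (-0.65, adjusted p 0.0442, edgeR), a call that held in 1 of 6 fits with a library left out, that without WT replicate 3. In the response to LPS 6 of 11 were higher in each genotype, and 2 in WT and 3 in ACAT1 KO cells were lower. Of all genes, 29.3% in WT and 29.5% in ACAT1 KO cells were called higher, and 28% and 31.2% lower. Il1a led, at log2 fold changes of 10.51 in WT and 11.16 in ACAT1 KO cells. These folds start from very low unstimulated levels, 0.148 ± 0.0551 CPM in WT and 0.195 ± 0.139 CPM in ACAT1 KO libraries.

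Over the 6 libraries in which Ifnb1 was counted, the genes whose log2 CPM followed it most closely were Gm10689, Slc9a8 and Fap, with Pearson r of 0.998, 0.998 and 0.997. Among the other members r was 0.917 for Il6, 0.903 for Ebi3, 0.89 for Il10 and 0.849 for Il12b. It was 0.791 for Lif, 0.758 for Il27, 0.739 for Il23a and 0.459 for Il15. By r the members ranked from 444 (Il6) to 4615 (Il15), so many other genes followed Ifnb1 more closely. The points behind each r share the genotype and the library, and the values are a description over 6 libraries.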

How the data were processed

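RNA-seq of 12 libraries was analysed. Raw counts per gene, 1 table a state, are what the authors deposited after trimming with Trimmomatic, alignment to GRCm38 with HISAT2 and quantification with StringTie, per the submitters' notes. The step that gave whole counts and its use of strand are not given in the sources used here, and the kit was directional. Other deposited columns hold the authors' fold changes and p-values, which were not used, nor were 12 columns of log2 values per library. The tables held 17544 and 17874 genes after 59 and 57 repeated entries were removed, and every listed gene had at least 4 counts in at least 5 of 6 libraries of its state, so a gene near silent in a state is not listed for it. Totals were 56948593 to 167280149 counts, so the spread between libraries limits precision. Pairs of libraries of a group differed beyond sampling noise, at a chi-square per degree of freedom of 34.1 to 287 over 12 pairs.

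Groups follow the labelled genotype and treatment, and replicates the labelled number. Counts were tested with edgeR 4.0.16 in R 4.3.3 (filterByExpr, TMM, quasi-likelihood, two-sided), genotypes within a state on its 6 libraries, and LPS responses and the interaction on all 12 over genes of both tables. Intervals of 95% use the t quantile of the fit. The tests were tried on simulated counts, and no error rate from that trial is given here. Exact permutation of 3 against 3 libraries cannot go below p = 0.1 and was not needed. Levels per kilobase use merged GENCODE exons of GRCm38, promoters are from RefSeq on GRCm38.p6, and correlations used log2 of CPM plus 0.1. The members and lists were chosen with earlier results of these data known. Beside the members and Acat1, at most 3 genes each way are named from a list, by the smallest p for genotype and the largest fold for LPS. Names that complete a count of 5 or fewer, markers and genes that overlap a member were added after their values were seen.

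Same-numbered unstimulated and LPS libraries of a genotype deviated together (r of 0.111 to 0.334 in 6 pairs, -0.235 to 0.024 in others). A source shared by number was inferred from this. The main fits of the LPS responses and the interaction had no term for that source, so their errors and p-values ignore the pairing. The pairing entered only in the replicate block by line. Alternatives were DESeq2 1.42.0, limma-voom with limma 3.58.1, 2 other normalizations, no filter, at least 10 counts in every library, 1 fit of all 12 libraries, replicate blocks, a term for the libraries that stood apart and each library left out. Leaving out the 3 unstimulated libraries that stood apart, and trying the alternatives on genes of the lists, were chosen after seeing the data.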

Additional observations from a re-analysis of the deposited data

Results flagged for a closer look

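The response of Irf8 to LPS differed between the genotypes in the edgeR test of the interaction. The log2 fold change of LPS over unstimulated cells was -1.33 in WT cells and -2.55 in ACAT1 KO cells, a difference of -1.22 ± 0.148 (SE, adjusted p 0.0195). Its mean was 159.5 CPM before and 63.4 CPM after LPS in WT cells, and 233 and 39.7 CPM in ACAT1 KO cells. The interaction was called under 16 of 21 alternatives, with values of -1.34 to -1.11. It was not called without the 3 unstimulated libraries that stood apart (-1.17, adjusted p 0.154), nor, with 1 library left out, without unstimulated WT replicate 2 (0.0756) or ACAT1 KO replicate 3 (0.0512), or without WT replicate 2 (0.0593) or ACAT1 KO replicate 2 (0.0774) after LPS.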

How the results depend on the processing

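Il6, Il10 and Ebi3 after LPS kept their direction and call under all 14 alternatives. The number of members called there was 5, and 3 to 5 with 1 library left out; it was 6 with DESeq2 and with relative log expression and upper-quartile normalization, 4 with limma-voom, and 4 of 7 with all 12 libraries in a single fit, where Ifnb1 and Il12b, counted after LPS only, have no row. Il23a was called under 6 of 14 alternatives, with adjusted p from 0.0011 to 0.127. The replicate block joined WT with ACAT1 KO libraries of the same number. Under it Ifnb1 was not called (adjusted p 0.0707, edgeR) and Il23a was (0.0179), 5 members in all. Same-numbered WT and ACAT1 KO libraries of a state correlated from -0.361 to 0.699 over 6 pairs, and other pairs from -0.822 to 0.647. These ranges overlap and do not settle whether the libraries share more than a number. limma-voom did not call Il12b (0.0589). In unstimulated cells 0 members were called, but 1 with all 12 libraries in a single fit (Ebi3) and 2 with DESeq2; leaving libraries out gave 0. For the interaction, 0 became 1 with DESeq2, and the replicate block by line left it at 0 (Il10 adjusted p 0.0613). The causes were not tested.

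Over all genes, 314 unstimulated calls became 1353 with all 12 libraries in a single fit, 1721 with DESeq2, 475 with at least 10 counts, 151 with the replicate block, 664 with a term for the libraries that stood apart, and 7 (without WT replicate 2) to 522 (without WT replicate 3) with 1 library left out. After LPS 2481 became 867 (without ACAT1 KO replicate 2) to 2245 (without WT replicate 1). The 31 interaction calls became 333 with DESeq2, 11 with limma-voom, 288 with the replicate block by line, 69 with the term, 2 without the libraries that stood apart, and 2 to 41 with 1 library left out. Upper-quartile normalization moved the median LPS response of all genes to -0.226 in WT and -0.175 in ACAT1 KO cells from -0.018 and -0.026, and the calls in WT from 4850 higher and 4638 lower to 3628 and 6681, and in ACAT1 KO from 4871 and 5166 to 3921 and 6560.

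Signs turned only for values that were not called. With 1 library left out in unstimulated cells, Il6 ran from -0.08 (without ACAT1 KO replicate 3) to 0.40, and from their lowest values to those without WT replicate 1 Il10 ran from -0.98 to 0.27, Il15 from -0.21 to 0.05 and Lif from -0.58 to 0.10. After LPS Il15 ran from -0.08 (without WT replicate 1) to 0.13, and was -0.06 without ACAT1 KO replicate 2. For the interaction Il23a ran from -0.07 to 0.52, Il27 from -0.53 to 0.25 (0.04 and 0.18 in 2 other fits) and Il15 from -0.01 to 0.23, and Il27 was 0.04 with limma-voom.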
